A study of Mus musculus with 6 samples.

Results

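The Myc, Max and Mxd network is a set of basic helix-loop-helix leucine zipper transcription factors, and its mRNA levels were followed in resting and stimulated CD4+ T cells. The 10 genes Myc, Mycn, Max, Mnt, Mxd1, Mxd3, Mxd4, Mxi1, Mga and Mlx were found in the deposited table by NCBI gene identifier, among 18446 genes in all. Of these 10, 9 averaged at least 1 FPKM over the 6 libraries, and Mycn did not. FPKM is a gene's fragment number per kilobase of transcript, scaled to the fragments mapped in its library, so levels of different genes can be set side by side.

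Proteins of this network work as pairs. Max is the shared partner: Myc-Max pairs bind the E-box CACGTG and activate genes of cell growth, while pairs of Max with Mxd1, Mxd3, Mxd4, Mxi1 or Mnt bind the same letters and recruit SIN3 and histone deacetylases to repress. Mga also pairs with Max, in a Polycomb-type repressor complex (PRC1.6), and Mlx is a Max-like partner for some Mxd proteins, Mnt and the glucose-sensing Mondo factors. In naive T cells Myc is known to be induced by the T cell receptor and to be needed for metabolic reprogramming and growth before division.

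Naive CD4+ T cells, taken as CD44-low, CD62L-high cells by flow sorting from spleen and lymph nodes of C57BL/6 mice aged 6 to 8 weeks, were compared between mice labelled Zak-deficient and wild type (WT). Map3k20 is the gene for Zak, a kinase that acts at the top of the p38 and JNK cascades. The labels write the genotype as Zak-/- and elsewhere speak of a loss conditional on T cells, without naming a Cre line. Cells of each genotype were sampled before culture (0 h) and after 6 h or 48 h in medium with antibodies against CD3 and CD28, giving 6 groups with 1 library each. The 6 groups were Zak-deficient at 0, 6 and 48 h and WT at 0, 6 and 48 h. With 1 library per group there is no spread within a group, so folds within 1 label or at 1 time are between single libraries and have no test. An additive fit of time and label over all 6 libraries, in limma, gave a test of each averaged over the other. It had 2 residual degrees of freedom per gene, to which limma added 4.12 drawn from the spread of the other genes. It takes a difference between labels to be equal at the 3 times, so it does not test whether the labels responded unequally. It is not stated how many mice gave each library.

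FPKM summed to between 496045 and 546113 per library. Summed markers of CD4 T cells (Cd3d, Cd3e, Cd3g, Cd4 and Lck) lay between 1492 and 1604 FPKM in all 6 libraries, and those of naive T cells were lower at 48 h, at 652.6 FPKM under the Zak-deficient label and 638.4 in WT, against 2593 and 2681 at 0 h. Summed markers of other cell types were low: 8.88 to 12.78 FPKM for CD8 T cells, 3.6 to 8.61 for B cells, 3.64 to 5.50 for myeloid cells, 0.74 to 2.33 for NK cells and 0.16 to 1.84 for erythroid cells. Those of regulatory T cells (Foxp3, Ikzf2 and Il2ra) were higher, with sums of 35.06, 148.2 and 104.8 FPKM at 0, 6 and 48 h under the Zak-deficient label and 28.25, 143.6 and 96.69 FPKM in WT, and Il2ra is also an activation gene. Foxp3 alone stood at 15.99, 44.67 and 7.65 FPKM under the Zak-deficient label and 14.06, 40.31 and 5.9 FPKM in WT. Map3k20 itself stood at 0.10, 0.10 and 1.61 FPKM in the libraries labelled Zak-deficient at 0, 6 and 48 h, and at 0.17, 0.19 and 1.35 FPKM in WT. A gene-level value cannot show the loss of an exon, and at 48 h it was not lower under the Zak-deficient label. Directions between genotypes therefore rest on the labels. Because the samples are bulk RNA, fewer cells of a type and less RNA per cell cannot be told apart.

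The letters CACGTG, which Myc-Max and Mxd-Max pairs bind, occur in the promoters of 4 of the network genes themselves. RefSeq promoters (GRCm38.p6, which is mm10), reaching from 250 bases before to 50 bases after a transcript start, were available for 9 of the 10 genes in 11 entries, 3 of them for Mxi1. No entry matched Myc. CACGTG reads the same on both strands and was present in 7.15% of all 32851 promoters of the table. The stretches around it are shown because these genes encode factors that bind it, with the E-box in capitals and 5′ to 3′ on the gene's strand:
Max, chr12:76962219-76962278, minus strand: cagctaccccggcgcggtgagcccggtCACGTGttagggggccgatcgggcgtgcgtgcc
Mnt, chr11:74830774-74830833, plus strand: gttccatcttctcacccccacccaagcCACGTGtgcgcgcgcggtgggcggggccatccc
Mxd4, chr5:34187897-34187956, minus strand: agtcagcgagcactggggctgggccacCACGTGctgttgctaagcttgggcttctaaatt
Mlx, chr11:101087223-101087282, plus strand: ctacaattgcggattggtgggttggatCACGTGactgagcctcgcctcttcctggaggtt
The first E-box letter lay 3 bases before the transcript start of the entry in Max, 123 in Mnt, 219 in Mxd4 and 40 in Mlx. In Max and Mlx the stretch lies inside the span of the gene given below, so that start is not the outermost one. The 4 genes did not share a time course: Mxd4 and Mnt were lower at 48 h than at rest, while Max and Mlx were higher by less than 2-fold. The E2F letters TTTCCCGC or TTTGGCGC, searched on both strands, were in 1.56% of all promoters, and among the members they occurred in that of Mycn, which held TTTGGCGC 2 times. Neither TGAGTCA (AP-1, 5.2% of all promoters) nor TGACGTCA (CRE, 1.79%) was in any of the 11 windows, both strands searched. CATGTG or CACATG occurred in 1 Mxi1 window only, against 14.2% of all promoters. A match is a run of letters and not a measured binding site.

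Myc (chromosome 15, 61985341 to 61990361, mm10), the growth-activating partner of Max, had the highest FPKM of the 10 genes in both 6 h libraries. In the libraries labelled Zak-deficient it stood at 8.75, 185.1 and 87.0 FPKM at 0, 6 and 48 h, and in WT at 11.5, 166.3 and 98.8 FPKM. Both resting values were far below every stimulated value, and under both labels the 6 h value was the highest of the 3 times. On the log2(FPKM+1) scale used for all changes here, Myc was 19.1-fold higher at 6 h than at 0 h under the Zak-deficient label and 13.4-fold higher in WT. Among the 10347 genes that averaged at least 1 FPKM, these were the 20th and the 32nd largest increases of their comparisons. At 48 h Myc was still 9.02-fold above rest under the Zak-deficient label and 7.97-fold in WT. Between 6 h and 48 h it was lower by 2.12-fold and 1.68-fold under these labels, past the 2-fold rule in the first and short of it in WT.

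Max (chromosome 12, 76937269 to 76962323), the partner of Myc and a partner of Mnt and the Mxd factors, varied little. It stood at 91.6, 73.6 and 110.3 FPKM at 0, 6 and 48 h under the Zak-deficient label and at 79.9, 72.8 and 108.7 FPKM in WT. Its lowest value was at 6 h, when Myc was highest, and its highest at 48 h, under both labels. From the lowest to the highest of the 6 libraries the ratio of FPKM was 1.52. Mlx (chromosome 11, 101086707 to 101092207) had a similarly narrow range, with 20.4, 23.9 and 27.4 FPKM under the Zak-deficient label and 18.1, 27.3 and 27.6 FPKM in WT. Both stimulated values of Mlx were above both resting values, by 1.17-fold to 1.5-fold within a label.

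**Figure D1:**
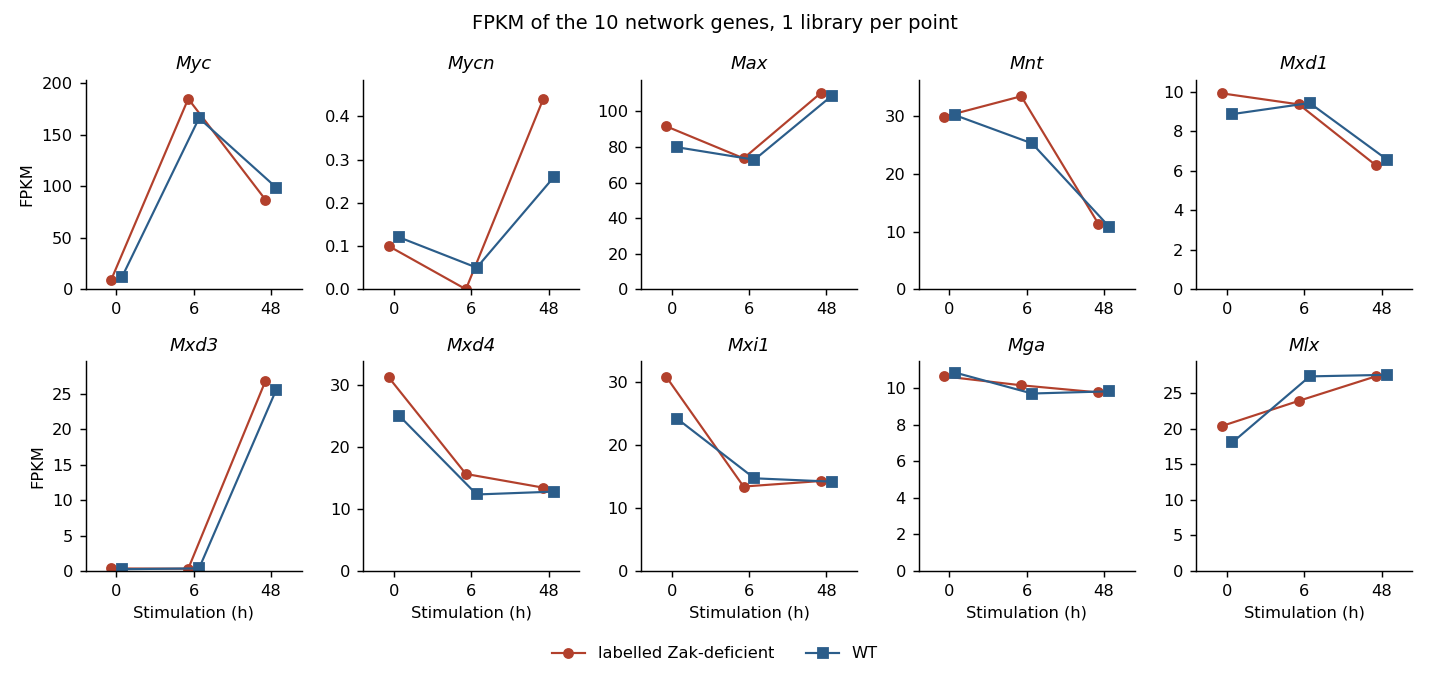
FPKM (linear axes from 0, a separate scale per panel) of the 10 network genes against hours of stimulation, with 1 library per point, circles for the label Zak-deficient and squares for WT. Myc is highest at 6 h, Mxd3 is near 0 until 48 h (26.8 and 25.6 FPKM), Mxd4 and Mxi1 are lower from 6 h on, Mnt is lower at 48 h, and Max, Mga and Mlx stay within a narrow range.

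Among the antagonists, Mxd4 and Mxi1 were lower already at 6 h. Mxd4 (chromosome 5, 34176580 to 34187710), a repressor known from differentiating and resting cells, stood at 31.2, 15.6 and 13.4 FPKM at 0, 6 and 48 h under the Zak-deficient label and at 24.9, 12.3 and 12.8 FPKM in WT. Mxi1 (chromosome 19, 53310128 to 53373293), a repressor of the same family, stood at 30.8, 13.4 and 14.3 FPKM under the Zak-deficient label and at 24.2, 14.7 and 14.2 FPKM in WT. For both genes every stimulated library was below every resting library, and the 6 h and 48 h values differed by little. At 6 h Mxd4 was 1.94-fold and 1.95-fold lower than at rest under the labels Zak-deficient and WT, just short of 2-fold, and Mxi1 was 2.21-fold and 1.6-fold lower. At 48 h Mxd4 was 2.23-fold lower under the Zak-deficient label and 1.88-fold in WT, and Mxi1 2.08-fold and 1.66-fold. With each library scaled to a common sum, the Mxd4 change in WT was -1.05 at 6 h and -1.01 at 48 h (log2), past the 2-fold rule, so these calls turn on small shifts in scale.

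Mnt (chromosome 11, 74830806 to 74845725), a broadly expressed antagonist of Myc, followed another course and was past the 2-fold rule only at 48 h. It stood at 29.9, 33.4 and 11.3 FPKM at 0, 6 and 48 h under the Zak-deficient label and at 30.2, 25.3 and 10.8 FPKM in WT. Both 48 h values were below all 4 earlier ones, and at 6 h the WT value was already below rest (log2 -0.25) while that under the Zak-deficient label was not (0.16). At 48 h Mnt was 2.51-fold below rest under the Zak-deficient label and 2.64-fold in WT, and 2.80-fold and 2.22-fold below the 6 h level. Mxd1 (chromosome 6, 86647044 to 86669234), the first described Mxd repressor, had lower levels and a smaller decline, with 9.91, 9.35 and 6.26 FPKM under the Zak-deficient label and 8.86, 9.42 and 6.56 FPKM in WT. At 48 h it was 1.5-fold and 1.30-fold below rest under these labels, short of 2-fold in both.

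Mxd3 (chromosome 13, 55325170 to 55329900) went the other way from the other antagonists. This member of the Mxd family is known from cells in S phase. It was near the lower end of measurement at first, with 0.36 and 0.32 FPKM at 0 and 6 h under the Zak-deficient label and 0.25 and 0.37 FPKM in WT. At 48 h it stood at 26.8 FPKM under the Zak-deficient label and 25.6 FPKM in WT, and the 2 values at 48 h were far above all 4 others. On the log2(FPKM+1) scale this was 20.5-fold above rest under the Zak-deficient label and 21.3-fold in WT, the 60th largest increase of 10347 genes in both. The added 1 FPKM makes these folds smaller than the ratio of the levels. By level it was the 4th of the 10 genes at 48 h, against the 9th at 0 and 6 h, and stood above Mnt, Mxd4, Mxi1 and Mxd1. Of the searched letters, none was in its promoter window.

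Mga and Mycn showed the flattest and the lowest levels. Mga (chromosome 2, 119872503 to 119970129), the scaffold of the PRC1.6 repressor complex, stood at 10.7, 10.2 and 9.77 FPKM under the Zak-deficient label and at 10.9, 9.71 and 9.83 FPKM in WT, a ratio of 1.12 between the highest and the lowest library. It lies on the same chromosome as Map3k20 (72285637 to 72442610), and its level differed between the labels by at most 1.04-fold at any time. Mycn (chromosome 12, 12936093 to 12941836), the Myc paralog of embryonic tissues, was listed at 0.10, 0 and 0.44 FPKM under the Zak-deficient label and at 0.12, 0.05 and 0.26 FPKM in WT. Among 2086 genes with a longest transcript within 10% of that of Mycn, the commonest low value was 0.02 FPKM in every library, which is near the worth of 1 fragment. The Mycn values would then stand for about 22 fragments or fewer.

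The balance of transcripts between Myc and its antagonists turned over within 6 h. The summed FPKM of Mxd1, Mxd3, Mxd4, Mxi1 and Mnt was 102.2, 72.1 and 72.1 at 0, 6 and 48 h under the Zak-deficient label, and 88.4, 62.1 and 70.0 in WT. Myc made up 7.89%, 71.95% and 54.7% of the sum of Myc and these antagonists under the Zak-deficient label, and 11.5%, 72.8% and 58.6% in WT. Both resting shares were far below all 4 stimulated shares, and the 48 h shares were below the 6 h shares under both labels. The antagonists also changed in kind. At rest Mxd4, Mxi1 and Mnt each gave 30.5%, 30.2% and 29.3% of the antagonist sum under the Zak-deficient label and 28.2%, 27.4% and 34.1% in WT. At 48 h Mxd3 alone gave 37.2% under the Zak-deficient label and 36.6% in WT, against 0.35% and 0.28% at rest, and Mnt gave 15.7% and 15.5%. The antagonist sum at 48 h was therefore close to that at 6 h although Mnt was lower. Max transcripts were 0.83 of the summed partners at 0 h, 0.29 at 6 h and 0.69 at 48 h under the Zak-deficient label, and 0.80, 0.32 and 0.64 in WT. Shares of mRNA say nothing of protein levels or of the pairs formed.

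**Figure D2:**
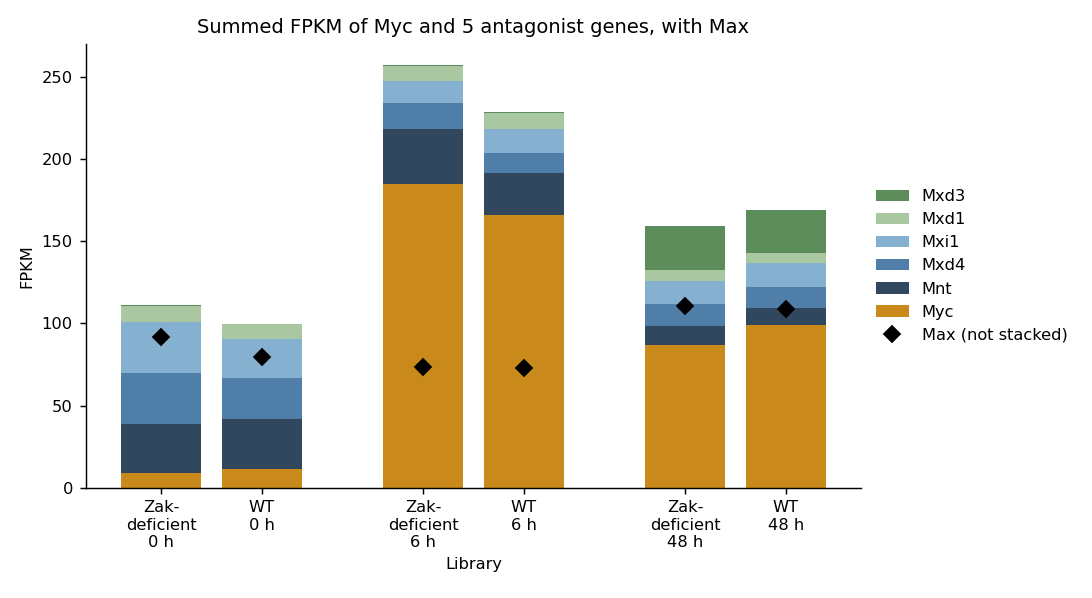
Summed FPKM (linear axis from 0) of Myc and 5 antagonist genes in each of the 6 libraries as stacked bars, with the Max level as a diamond that is not part of the stack. Myc is a minor segment at 0 h (7.89% and 11.5%) and the largest at 6 h (71.95% and 72.8%), and the Mxd3 segment is visible only at 48 h.

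Counted by the 2-fold rule at 6 h against rest, Myc was the 1 gene of 10 that was higher under both labels, where 9.08% of all 10347 genes were at least 2-fold higher under the Zak-deficient label and 8.93% in WT. Mxi1 was lower under the Zak-deficient label, where 1.52% of genes were, and no member passed the rule downwards in WT, where 1.39% did. At 48 h against rest, the members past the rule under the Zak-deficient label were Myc and Mxd3 upwards (18.4% of all genes) and Mnt, Mxd4 and Mxi1 downwards (12.0%). In WT they were Myc and Mxd3 upwards (17.8%) and Mnt downwards (12.3%). At 48 h against 6 h, Mxd3 was higher under both labels, where 10.8% of all genes were under the Zak-deficient label and 9.32% in WT. Myc and Mnt were lower under the Zak-deficient label and Mnt in WT, beside 6.55% and 6.14% of all genes. With a 1.5-fold rule in WT, 3 of 10 passed in either direction at 6 h and 5 at 48 h, beside 29.9% and 52.9% of all genes. For the 9 members above the low-level filter, the median log2 change against rest was small. It was -0.06 at 6 h and -0.11 at 48 h under the Zak-deficient label and -0.13 at both times in WT. The same median over all 10347 genes was -0.08, 0.06, -0.06 and 0.00 in that order of comparisons. Without regard to sign, the member median was 0.22 at 6 h and 1.06 at 48 h under the Zak-deficient label, against 0.38 and 0.63 over all genes. In WT it was 0.25 and 0.73, against 0.37 and 0.63 over all genes.

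With both labels fitted together, 5 of the 9 members above the filter passed at 6 h against rest (limma, adjusted p under 0.05 over 10347 genes). Myc, with a log2 change of 4.0 ± 0.125 (SE; adjusted p = 7.43e-06), and Mlx (0.40 ± 0.101; adjusted p = 0.0169) were higher, as were 26.3% of all genes. Mxd4 (-0.96 ± 0.0959; adjusted p = 0.000445), Mxi1 (-0.91 ± 0.123; adjusted p = 0.00142) and Max (-0.22 ± 0.0771; adjusted p = 0.0492) were lower, as were 30.4% of all genes. The Max call did not hold with median-ratio scaling (adjusted p = 0.169), without a variance trend (0.0852) or without the low-level filter (0.0872), where Mlx also missed the threshold (0.0557). At 48 h against rest 8 of 9 passed. Myc (3.08), Mxd3 (4.38 ± 0.117), Mlx (0.50) and Max (0.35) were higher beside 39.0% of all genes, and Mnt (-1.36 ± 0.114), Mxd4 (-1.04), Mxi1 (-0.89) and Mxd1 (-0.49) were lower beside 35.2%, with adjusted p between 1.63e-06 and 0.00615 in limma. Mga, at -0.12 ± 0.0855, was the member that did not pass (adjusted p = 0.236). At 48 h against 6 h, Mxd3 and Max (0.57) were higher beside 29.8% of all genes, and Myc (-0.91), Mnt (-1.32) and Mxd1 (-0.49) were lower beside 30.0%. Shares this near the background are no result about the members. The test measures how alike the time courses were under the labels, not the spread between mice.

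**Figure D3:**
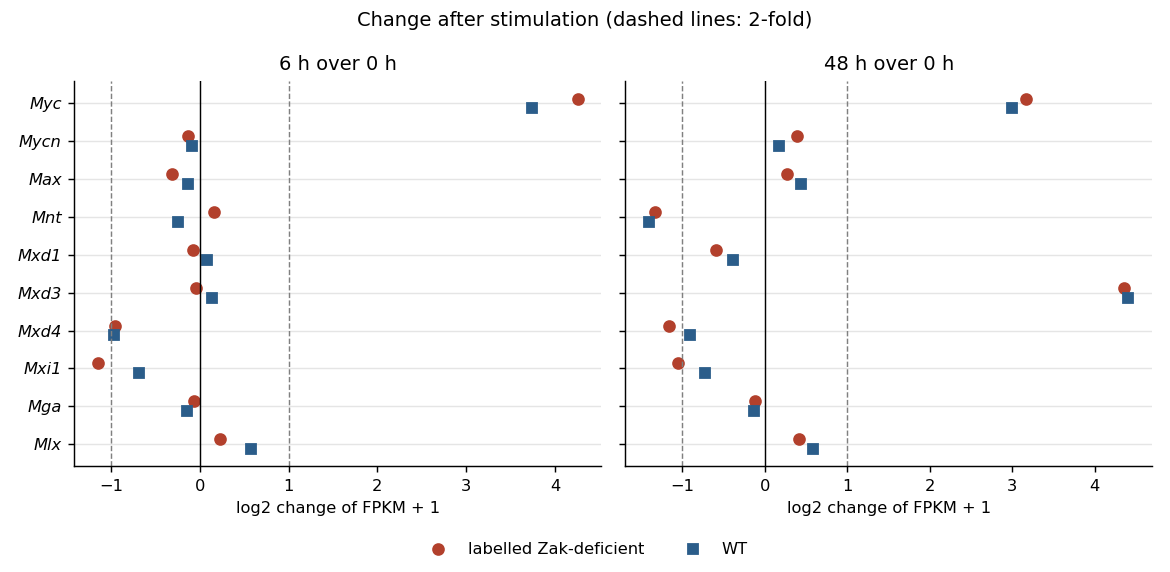
Change of each network gene after 6 h (left) and 48 h (right) of stimulation against the 0 h library of the same label, as log2 change of FPKM + 1, with circles for the label Zak-deficient, squares for WT and dashed lines at 2-fold. Myc lies beyond the upper line at both times, Mxd3 only at 48 h (4.36 and 4.41), and Mnt lies below the lower line at 48 h (-1.33 and -1.40).

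Between the labels, 0 of 10 network genes differed 2-fold at any time, beside 0.271% of all genes at 0 h, 0.242% at 6 h and 2.23% at 48 h in either direction. At 1.5-fold it was again 0 of 10 at each time, beside 1.12%, 1.65% and 4.22% of all genes. At rest Myc was lower in the library labelled Zak-deficient. Myc stood at 8.75 FPKM there and at 11.5 in WT, a log2 ratio of -0.36 or 1.28-fold lower, and 2.17% of the 10347 genes were at least as far down. Mxi1 (30.8 against 24.2 FPKM) had a log2 ratio of 0.34, Mxd4 (31.2 against 24.9) of 0.31 and Max (91.6 against 79.9) of 0.20. At least as far up were 2.49%, 2.88% and 7.13% of all genes. Mlx (0.16, with 9.72% as far up), Mxd1 (0.15) and Mxd3 (0.12, near the lower end of measurement) were also higher. Mnt and Mga lay within 0.03 of equal levels, and the median gene differed 1.06-fold in either direction. The median log2 ratio at rest was 0.15 over the 9 members above the filter and -0.007 over all genes. The signs of the members other than Mnt held under each scaling and pseudocount tried, and Mnt lay too near equal levels for a direction. Markers of B cells also stood apart at rest, with a sum of 7.60 FPKM under the Zak-deficient label and 3.6 in WT and 0 of 7 markers listed at 0 in either, and their part in these differences was not tested.

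At 6 h the largest differences between the labels were in the antagonists Mnt and Mxd4. The other antagonists were not higher, with log2 ratios of -0.13 for Mxi1, -0.05 for Mxd3 and -0.01 for Mxd1, whose sign changed with the scaling. Mnt stood at 33.4 FPKM under the Zak-deficient label and 25.3 in WT, a log2 ratio of 0.39 that 3.03% of all genes reached or passed. Mxd4 stood at 15.6 and 12.3 FPKM in that order of labels, a log2 ratio of 0.32 that 5.60% reached or passed. Myc, at 185.1 FPKM under the Zak-deficient label and 166.3 in WT, had a log2 ratio of 0.15, and 20.9% of genes were at least as far up. Mlx was lower under the Zak-deficient label (23.9 against 27.3 FPKM, log2 ratio -0.19, 20.0% at least as far down). At 48 h the labels lay closest in the values as deposited, but not with median-ratio scaling, where Myc was at -0.35 and the other 8 genes above the filter between -0.21 and -0.09. As deposited, Myc stood at 87.0 FPKM under the Zak-deficient label and 98.8 in WT (log2 ratio -0.18, 7.93% at least as far down), and the other 8 genes above the filter lay between -0.06 and 0.07. Of these, Max, Mnt, Mxd3, Mxd4 and Mxi1 changed sign under other scalings, so no direction is given for them at 48 h.

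With the labels compared within each time over the 3 pairs, 0 of the 9 members above the filter passed in limma, and 1 (Mxd4) had an unadjusted p under 0.05. Mxd4 differed by 0.23 ± 0.0783 (log2, SE; adjusted p = 0.833, with a range of 0.33 to 0.939 over the alternatives) and was higher under the Zak-deficient label in 3 of 3 pairs, although its sign at 48 h changed with the scaling. Myc differed by -0.13 ± 0.102 (adjusted p = 0.839) and was lower in 2 of 3 pairs, and Mnt by 0.15 ± 0.093 (adjusted p = 0.833). Over all 10347 genes 3 passed, 0.0193% upwards and 0.00966% downwards, and 505 had an unadjusted p under 0.05. With 3 pairs a p that misses the threshold does not show equal levels.

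**Figure D4:**
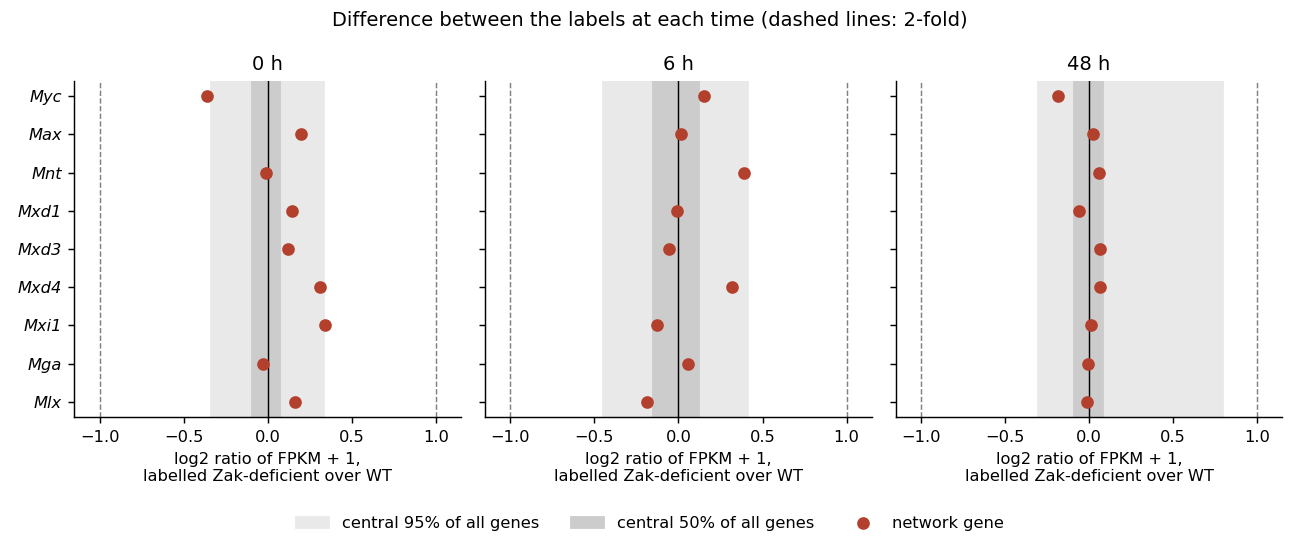
Log2 ratio of FPKM + 1 between the label Zak-deficient and WT for the 9 network genes above the low-level filter at 0, 6 and 48 h, over bands that hold the central 50% and 95% of 10347 genes. All points lie inside the dashed 2-fold lines, and Myc at 0 h (-0.36) lies beyond the lower edge of the outer band (-0.34), with Mxi1 at 0 h (0.34) just past its upper edge.

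The responses to stimulation were also set against each other. These use the 0 h libraries again, so they are not separate from the differences at rest. For Myc the 6 h response was larger by 0.51 on the log2 scale under the Zak-deficient label than in WT (0.41 to 0.60 under the other scalings and pseudocounts), and 2.09% of all genes had a difference at least as far up. Here the lower resting level of 8.75 FPKM, against 11.5 in WT, and the higher 6 h level both enter. The difference of the 6 h responses was -0.46 for Mxi1, 0.40 for Mnt and -0.35 for Mlx, with 4.11%, 4.84% and 7.87% of all genes at least as far in those directions. At 48 h the difference was 0.18 for Myc and -0.33 for Mxi1. By the 2-fold rule 0 of 10 members differed in either response, beside 0.580% of all genes at 6 h and 1.78% at 48 h.

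The genes with time courses most like those of the members were sought among 7999 genes averaging at least 5 FPKM, by the root mean square difference of centred log2(FPKM+1) profiles over the 6 libraries. Nearest to Myc were Shmt2 of mitochondrial folate metabolism (difference 0.21; 19.2, 243.2 and 144.6 FPKM at 0, 6 and 48 h under the Zak-deficient label and 19.6, 237.0 and 147.8 FPKM in WT), the receptor gene Slamf1 (0.21) and the chemokine gene Xcl1 (0.22), which was listed at 0 in both resting libraries. Nearest to Mxd3 were Ncaph, a condensin subunit (0.06; 1.39, 1.32 and 45.7 FPKM under the Zak-deficient label and 1.24, 1.23 and 48.4 FPKM in WT), the cohesin acetyltransferase gene Esco2 (0.07) and Dtl, which encodes a ubiquitin ligase adaptor of S phase (0.07). Mxd4 lay nearest to Map3k3 (0.08), Rere (0.09) and Fam117a (0.10), and Mxi1 to Hspb6 (0.08), Ctps2 (0.08) and Stradb (0.10). Mnt was most like Zswim8 (0.06), Qprt (0.06) and Eml5 (0.09), and Mxd1 like Lats1 (0.02), Tmem186 (0.03) and Senp2 (0.04). Max was closest to Trappc13 (0.05), Pcgf5 (0.05) and Zfp280b (0.06), Mga to Mavs (0.03), Ap1g1 (0.03) and Pja2 (0.04), and Mlx to Gsto1 (0.04), Snx5 (0.04) and Pphln1 (0.05). Within the network, Mxd4 and Mxi1 were nearest to each other (0.14), while the network gene nearest to Myc was Mlx at 1.53 and the one nearest to Mxd3 was Max at 1.84. Flat profiles have many near neighbours, so a small difference for Mga, Max or Mxd1 is common.

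Genes activated by Myc in textbook accounts were mostly higher after stimulation. All 40 on the list were above the filter. The list was chosen with earlier results of these data known, so its counts beside all genes are a description and not a test. The part of Myc in these changes was not tested. At 6 h the 2-fold rule was passed upwards by 33 under the Zak-deficient label and 36 in WT, and downwards by 0 under both, beside 9.08% and 8.93% of all genes upwards. The median log2 change was 1.97 under the Zak-deficient label and 2.0 in WT, against -0.08 and -0.06 over all genes. At 48 h 36 were higher under the Zak-deficient label (median 2.08) and 37 in WT (2.13), with 0 lower, beside 18.4% and 17.8% of all genes upwards. The amino acid transporter gene Slc7a5 stood at 5.39, 169.2 and 84.2 FPKM under the Zak-deficient label and 5.38, 145.8 and 86.9 FPKM in WT, a course with its peak at 6 h like that of Myc. Srm, spermidine synthase, stood at 6.51, 172.6 and 100.1 FPKM under the Zak-deficient label and 6.77, 155.4 and 104.2 FPKM in WT. Shmt1 of cytosolic folate metabolism was 15.9-fold higher at 6 h under the Zak-deficient label and 18.5-fold in WT, and hexokinase Hk2 went on to 16.9 and 18.6 FPKM at 48 h, against 0.16 and 0.08 at rest. Between the labels 0 of 40 differed 2-fold at 0, 6 or 48 h, beside 0.271%, 0.242% and 2.23% of all genes. A count of 0 so near these shares is no result about the list. The medians were 0.03, -0.05 and -0.07. The largest differences at 6 h were in Cad, an enzyme of pyrimidine synthesis (34.5 FPKM under the Zak-deficient label against 23.8 in WT, log2 ratio 0.52), and in Npm1, nucleophosmin (1056 against 1385, log2 ratio -0.39).

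Genes that Myc is known to repress went both ways. Of 11 listed, 8 were above the filter. At 48 h 2 passed the 2-fold rule upwards and 2 downwards under the Zak-deficient label, against 2 upwards and 3 downwards in WT. Over all genes 18.4% passed upwards and 12.0% downwards under the Zak-deficient label, and 17.8% and 12.3% in WT. The cell cycle inhibitor gene Cdkn1a stood at 1.47, 15.7 and 65.2 FPKM under the Zak-deficient label and at 1.07, 17.7 and 59.0 FPKM in WT, and Cdkn1b at 155.5, 76.5 and 33.4 FPKM under the Zak-deficient label and 157.3, 75.1 and 31.2 FPKM in WT. Cdkn2c was 7.44-fold higher at 48 h under the Zak-deficient label and 6.51-fold in WT, while the stress gene Gadd45b was 4.46-fold and 5.55-fold lower. Gadd45b also had the largest difference between the labels on this list, 23.0 FPKM at rest under the Zak-deficient label against 34.1 in WT (log2 ratio -0.55).

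Genes whose products work with the network were also counted. Of 18 coactivator genes, 3 passed the 2-fold rule upwards at 6 h under each label and 0 downwards, beside 9.08% of all genes upwards under the Zak-deficient label and 8.93% in WT, with a median log2 change of 0.32 under the Zak-deficient label and 0.12 in WT. The AAA+ ATPase gene Ruvbl1 stood at 14.7, 59.5 and 62.6 FPKM at 0, 6 and 48 h under the Zak-deficient label and 16.8, 61.9 and 65.4 FPKM in WT, its partner gene Ruvbl2 at 19.8, 71.6 and 67.6 FPKM under the Zak-deficient label and 22.4, 67.9 and 72.7 FPKM in WT. The acetyltransferase gene Kat2a was 2.54-fold higher at 6 h under the Zak-deficient label and 2.15-fold in WT. At 6 h Ccnt1, the cyclin of P-TEFb, and Trrap, a scaffold of acetyltransferase complexes, had log2 ratios of 0.52 and 0.48 between the labels. Of 18 genes of the SIN3 and histone deacetylase corepressors, 3 passed upwards and 2 downwards at 48 h under the Zak-deficient label, and 2 and 2 in WT, near the shares of all genes at that time (18.4% and 12.0% under the Zak-deficient label, 17.8% and 12.3% in WT). Sap30 was 5.05-fold and Rbbp7 3.59-fold higher under the Zak-deficient label, and 4.69-fold and 3.85-fold in WT, while Arid4a was 3.43-fold and 3.04-fold lower under these labels and Arid4b 2.23-fold and 2.20-fold. Sin3a and Sin3b, the proteins that Mxd factors bind, changed by less than 2-fold, Sin3a standing at 38.4, 28.7 and 29.0 FPKM under the Zak-deficient label and 37.8, 29.0 and 29.9 FPKM in WT, and Sin3b at 62.6, 67.0 and 64.5 FPKM under the Zak-deficient label and 62.2, 72.5 and 61.7 FPKM in WT. Both were named after their values were seen.

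Among 18 genes of Myc protein turnover, 4 passed upwards and 2 downwards at 48 h under each label, beside 18.4% and 12.0% of all genes under the Zak-deficient label and 17.8% and 12.3% in WT. The mitotic kinase gene Aurka, known to stabilise N-Myc, was 9.92-fold higher under the Zak-deficient label and 13.8-fold in WT, and Cip2a, an inhibitor of the phosphatase PP2A, 9.58-fold and 10.7-fold. The deubiquitinase gene Usp28, which opposes Fbxw7-driven loss of Myc, stood at 46.8, 22.5 and 6.70 FPKM under the Zak-deficient label and at 51.5, 24.8 and 6.86 FPKM in WT, and the kinase gene Pim1 at 145.0, 180.4 and 33.5 FPKM under the Zak-deficient label and at 149.5, 173.1 and 35.5 FPKM in WT. Of 9 PRC1.6 partners of Mga, 2 passed upwards and 0 downwards at 48 h under each label, beside 18.4% and 17.8% of all genes upwards. These were the E2F partner gene Tfdp1 (8.93-fold under the Zak-deficient label, 9.76-fold in WT) and E2f6 (2.97-fold and 2.51-fold), while Mga itself differed from rest by 1.08-fold under the Zak-deficient label and 1.10-fold in WT.

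On the Mlx side, the Mondo target Txnip, an arrestin-like inhibitor of glucose uptake, stood at 174.5, 75.04 and 46.0 FPKM at 0, 6 and 48 h under the Zak-deficient label and at 181.7, 84.8 and 44.9 FPKM in WT. Of 4 Mondo targets listed, 3 were above the filter, and 1 was at least 2-fold lower at 48 h under the Zak-deficient label and 2 in WT, where Arrdc2 was 2.28-fold lower. Among all genes 12.0% were at least 2-fold lower at 48 h under the Zak-deficient label and 12.3% in WT. Of 12 further E-box factors 9 were above the filter, and at 6 h Bhlhe40, a repressor induced on T cell activation, was the gene past 2-fold under both labels (27.7 FPKM at 6 h against 7.14 at rest under the Zak-deficient label, 26.5 against 8.92 in WT). Beside it, 9.08% of all genes passed upwards at 6 h under the Zak-deficient label and 8.93% in WT. The Mondo gene Mlxipl and the Myc paralog Mycl, named after their values were seen, were at 0.27 FPKM or less in every library.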

How the data were processed

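RNA was sequenced from 6 libraries, 1 for each of 2 genotypes at 3 times. The authors deposited gene-level FPKM with 2 decimals; per the submitters' processing notes, Bowtie and RSEM were used with mm10, with no version or setting stated. FPKM is relative to the RNA of each library, so a change in total RNA per cell is not seen in it. Read totals are not given.

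Of 18446 genes, 18326 had a symbol in the RefSeq table of GRCm38.p6. Changes are differences of log2(FPKM+1) without rescaling, and a gene was counted at 2-fold or more. Single libraries were compared without a test, each member beside the 10347 genes averaging at least 1 FPKM. A fit chosen after seeing the data, limma 3.58.1 in R 4.3.3 with a variance trend, modelled log2(FPKM+1) on time and label with Benjamini-Hochberg adjustment. Genotypes were paired by time of sampling, per the labels. The members and lists were chosen with earlier results of these data known. All members were named; from each context list, up to 4 genes with the largest change in WT and up to 2 with the largest difference between labels could be named, and others are said to be named after their values were seen. The counting step and the fit were run on simulated data with the same noise size for every gene. For the fit, the simulated label change was equal at all times, so unequal spread or unequal changes were not tried. Alternatives were pseudocounts of 0.1 and 5 FPKM, no low-level filter or one at 5 FPKM, 3 rescalings, a 1.5-fold rule, and other antagonist sums. Computation was in pandas 2.3.3 and numpy 2.4.6 under Python 3.11.15, with plots from matplotlib 3.10.9.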

Additional observations from a re-analysis of the deposited data

Results flagged for a closer look

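In 6 of 30 pairs of responses (10 genes, 3 pairs of times), the library labelled Zak-deficient and the WT library moved in opposite directions; with 1 library each, none of these differences was tested. At 6 h against 0 h, the log2 change of Mnt was 0.16 under the Zak-deficient label and -0.25 in WT, signs that held under each scaling and pseudocount tried. The other pairs were small. At 6 h against 0 h, Mxd1 was at -0.08 under the Zak-deficient label and 0.08 in WT, where its sign changed with the scaling, and Mxd3, near the lower end of measurement, at -0.04 and 0.13. At 48 h against 6 h, Mxd4 was at -0.20 under the Zak-deficient label and 0.05 in WT, Mxi1 at 0.09 and -0.05, both of which changed sign with the scaling, and Mga at -0.05 and 0.02.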

How the results depend on the processing

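In the fit with time and label as a replicate block, chosen after seeing the data, 0 of 9 members were called between the labels. The same held when the 0, 6 or 48 h pair was left out. Fewer libraries then enter the fit, so a member that is not called is not shown to be equal. With all 6 libraries the fit called 5 members at 6 h against 0 h, and 3 without the low-level filter, where Max and Mlx were lost. Max was also lost with median-ratio scaling and with no variance trend. In each setting the fit called 8 members at 48 h against 0 h and 5 at 48 h against 6 h, with Mycn added to the last without the filter. The number of all genes it called between the labels was 3, between 0 and 11 under other filters, scalings, pseudocounts or with no variance trend, and 0, 1 and 64 without the 0, 6 or 48 h pair. No single library could be left out of a group. No call of a network gene reversed under the alternatives tried. At 6 h against 0 h in WT, 2 members passed the 2-fold rule with a pseudocount of 0.1 FPKM, with upper-quartile scaling or with common-sum scaling, and 3 with the 1.5-fold rule, in place of 1; Mxd4 was the added gene in the first 3 and Mxi1 came with it in the last. At 48 h against 0 h in WT, 5 passed at 1.5-fold in place of 3. With a pseudocount of 5 FPKM, 1 passed at 6 h against 0 h (2 as reported) and 3 at 48 h against 0 h (5 as reported) under the Zak-deficient label, and 1 at 48 h against 6 h in WT (2 as reported). At 1.5-fold 0 of 10 members differed between the labels at 0, 6 or 48 h, beside 1.12%, 1.65% and 4.22% of all genes. A pseudocount of 0.1 FPKM put Mycn past 2-fold in 4 comparisons (log2 -1.0 to 2.43), which rest on levels of 0.44 FPKM or less. Median-ratio scaling moved the median of all genes by -0.16 (log2) at 48 h between the labels, the largest such shift. With Mga among the antagonists, the Myc share at 0, 6 and 48 h was 7.20%, 69.2% and 51.5% under the Zak-deficient label and 10.4%, 69.8% and 55.3% in WT. With Mnt left out it was 10.8%, 82.7% and 58.9% under the Zak-deficient label and 16.5%, 81.9% and 62.6% in WT. Over all genes, the number at least 2-fold apart between the labels at 0 h was 28, against 97 with a pseudocount of 0.1 FPKM, 7 with 5 FPKM, 13 among genes averaging at least 5 FPKM and 116 at 1.5-fold. Count precision cannot be given without read totals.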
